A study of Homo sapiens with 8 samples.

Results

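The cytosolic ribosomal protein genes were examined on 8 Illumina HumanRef bead arrays that measured total RNA of human cell lines. Members were chosen by symbol: RPLP1, RPLP2, or RPL or RPS with a number and at most a single letter A, L or X, leaving out pseudogenes, S6 kinase genes and RPS27L. The rule found 89 of 24526 probes, for 70 of 16922 named genes. Of these, 67 genes passed the filter on dim probes and stood among the 10309 genes tested, 24 for proteins of the small (40S) subunit and 43 for proteins of the large (60S) subunit. The 3 that did not pass were RPL10, RPL37 and RPL3L, whose probes lay between 5.50 and 5.92 log2 on all 8 arrays, below the array medians. RPLP0 and RPSA, which the rule also allows, were not analysed here.

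The 4 groups had 2 arrays each: HT1080 cells given an siRNA against VRK1 (siVRK1), HT1080 cells given a scrambled control siRNA, MDA-MB-231 cells given siVRK1, and MDA-MB-231 cells given the control siRNA. HT1080 is a fibrosarcoma line and MDA-MB-231 a breast adenocarcinoma line, and VRK1 is a nuclear serine/threonine kinase that acts on chromatin and nuclear envelope proteins. All cells grew in medium with 10% serum for 24 h, received the siRNA in a lipid reagent, and were harvested 42 h later. All siVRK1 arrays used 1 siRNA, number 308 of the labels, so no other sequence against VRK1 stands beside it. Whether the replicates of a group were separate cultures is not stated, so the p-values cover no more than the spread of these arrays, which may be of technical origin.

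Ribosomal proteins bind ribosomal RNA in the nucleolus and become the protein part of the 40S and 60S subunits, the small one decoding mRNA and the large one joining amino acids. Their mRNAs are among the most abundant of a growing cell. The cell needs the proteins in fixed proportions, and their genes are known for being expressed together. Most of these mRNAs begin with a C at the cap followed by a run of pyrimidines, the terminal oligopyrimidine (TOP) motif, through which mTORC1 and LARP1 control their translation. An array measures only the amount of the mRNA, not its translation.

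The TOP run is a feature that many, but not all, of these genes share beyond their names. The annotated start is therefore shown for members on which the results below turn, with 15 bases before it and 15 from it. Sequences are those of RefSeq on GRCh38.p14, and capitals mark the uninterrupted run of C and T that begins with a C at the annotated start, where it is at least 5 bases long. The first 5 are the genes with the largest higher values in HT1080, RPS23 was lower there, RPS13 had opposite values in the lines after siVRK1, and RPL39 is the widely expressed partner of RPL39L.
RPL14, chr3:40457324-40457353, plus strand: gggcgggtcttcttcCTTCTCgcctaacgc
RPL29, chr3:51995881-51995910, minus strand: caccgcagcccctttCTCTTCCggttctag
RPS7, chr2:3575245-3575274, plus strand: gtttccgccctcctcctcgcgctgtttccg
RPL6, chr12:112411428-112411457, minus strand: tatttgtatcctcagtgaatcagaaccaga
RPS24, chr10:78033848-78033877, plus strand: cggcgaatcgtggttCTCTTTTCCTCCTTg
RPS23, chr5:82278340-82278369, minus strand: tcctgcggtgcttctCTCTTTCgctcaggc
RPS13, chr11:17077653-17077682, minus strand: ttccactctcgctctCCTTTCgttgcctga
RPL39, chrX:119791616-119791645, minus strand: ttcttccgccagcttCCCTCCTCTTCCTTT

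RefSeq promoter windows, 250 bases before and 50 after a gene's start, were found for 58 of the 70 members. A run of at least 5 pyrimidines beginning with C at the annotated start was present in 39 of 58 members (67.2%), against 461 of 8530 genes tested (5.4%) and 1104 of 27303 genes in the whole table (4.04%). The run of RPL39 was the longest among members, at 19 bases. Of the members higher in HT1080 16 of 25 carried such a run, of those lower 1 of 3, and of those not called 22 of 29. In RPS7 the annotated start falls inside a pyrimidine stretch, of which 3 bases follow it, and RPL6 has no C there. A gene without the run in this window may have it from another start. Of other motifs looked for on either strand of the whole window, CCGGAAG stood in 32.8% of members against 19.4% of genes tested and ATGGCGG in 20.7% against 10.6%. GGGCGG stood in 56.9% against 69.6%, CACGTG in 5.17% against 10.6%, and TATAAA in 8.62% against 5.76%. These are descriptions of sequence, and no factor's binding was measured.

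Across the 10309 genes tested, arrays of the same group correlated at 0.988 to 0.995 (Pearson). The array medians over all probes lay between 5.925 and 5.927 log2. The VRK1 probe read 6.57 and 6.51 log2 in HT1080 siVRK1, against 7.84 and 7.88 in HT1080 control. It read 6.23 and 6.74 in MDA-MB-231 siVRK1, against 7.93 and 7.61 in MDA-MB-231 control. The drop was 1.32 in HT1080 and 1.28 in MDA-MB-231 on the log2 scale (log2 fold change -1.32 and -1.28, SE 0.17 each, limma adjusted p = 0.0232 and 0.0124). Leaving out any HT1080 array put the adjusted p of VRK1 in HT1080 between 0.270 and 0.327, with 0 or 1 of all genes called. In MDA-MB-231 its adjusted p was 0.0616 without either HT1080 control array and 0.313 with that line fitted alone, where 0 genes were called. The log2 fold change of VRK1 lay between -1.35 and -1.29 in HT1080 and between -1.54 and -1.03 in MDA-MB-231 over all settings run. Of the 5 epithelial markers tested 0 were higher in HT1080 control and 3 lower, among them KRT19 with 5.78 and 5.69 log2 in HT1080 control and 10.92 and 11.12 in MDA-MB-231 control. Of the 5 mesenchymal markers tested 0 were higher in HT1080 control and 3 lower, with a median of -0.49. SNAI2 read 7.24 and 7.23 in HT1080 control and 8.78 and 8.22 in MDA-MB-231 control, PDGFRB read 6.04 and 6.10 in HT1080 control and 7.10 and 6.77 in MDA-MB-231 control, and VIM lay between 11.39 and 12.13 on all 8 arrays. Of the 3 leukocyte markers tested 1 was higher and 2 were lower in HT1080 control. CD68 read 9.82 and 10.01 in HT1080 control and 8.88 and 8.91 in MDA-MB-231 control, LAPTM5 read 6.88 and 6.91 in HT1080 control and 8.49 and 8.45 in MDA-MB-231 control, and CD14 read 5.74 and 6.09 in HT1080 control and 8.18 and 7.88 in MDA-MB-231 control. EPCAM, CLDN4, FN1, COL3A1, PTPRC, CD3E, CD79A, CDH5, KDR and VWF did not pass the filter.

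Ribosomal protein probes crowded the bright end of the arrays. Of the 50 brightest probes 18 were members, of the 100 brightest 24, and of the 200 brightest 33. Of the 89 member probes, 64 lay at or above 9.93 log2, the 95th percentile of all probe means. Brightness also depends on a probe's sequence, so it orders probes and not genes, and no gene's level is set against another's here.

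The deposited columns shared a single distribution, so the brightest values are steps of 1 ladder on which probes exchange places. RPL38, a 60S protein, read 14.31 and 14.31 log2 in HT1080 siVRK1 and 14.31 and 14.31 in HT1080 control. RPS25, a protein of the 40S head, read 14.18 and 14.24 in HT1080 siVRK1 and 14.11 and 14.11 in HT1080 control. RPL41, the smallest ribosomal protein, lay between 13.83 and 13.97 on all 8 arrays. At this end the value is close to a rank, and a shift common to the brightest genes would be held down by the shared distribution. The dimmest member probes tested were those of RPL10L, between 5.72 and 6.04 log2, RPL7A, between 6.61 and 7.57, and RPL28. RPL10L is a testis paralog of RPL10, and its probe did not rise clear of the array medians. Each array reads the RNA of a whole culture, so less mRNA per cell and fewer cells that express a gene cannot be told apart.

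Between the control-treated lines the ribosomal protein genes were mostly higher in HT1080. Of the 67 genes tested, 34 differed (limma, adjusted p under 0.05), or 50.7%, which is near the 49.8% of all genes tested that were called in this comparison. The direction was uneven: 30 members (44.8%) were higher in HT1080 control, against 24.3% of all genes tested, and 4 members (5.97%) were lower, against 25.5%. At a difference of at least 1 log2, 5 members were higher (5.72% of all) and 2 lower (6.85% of all). Positive values were found in 53 of 67 members, against 50.2% of all genes tested. The median difference of the members was 0.27 log2, HT1080 control minus MDA-MB-231 control, while that of all genes tested was 0.00. The 40S genes had a median of 0.31, with 11 higher and 2 lower of 24, and the 60S genes a median of 0.22, with 19 higher and 2 lower of 43.

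The shift was also seen in single arrays. The median over members was 12.09 and 12.01 log2 on the HT1080 control arrays, against 11.75 and 11.65 on the MDA-MB-231 control arrays. The SD of this median between replicates was 0.0515. In 52 of 67 genes the arrays of the lines did not overlap (75.7% of all genes tested), 41 of them higher in HT1080 (37.9% of all) and 11 lower (37.8% of all). The 575 genes outside the set that were at least as bright as the members' lower quartile had a median of -0.02. The 50 members above that quartile had a median of 0.20 and the 17 below it one of 0.67. The plot of members between the lines shows every gene with its interval.

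**Figure D1:**
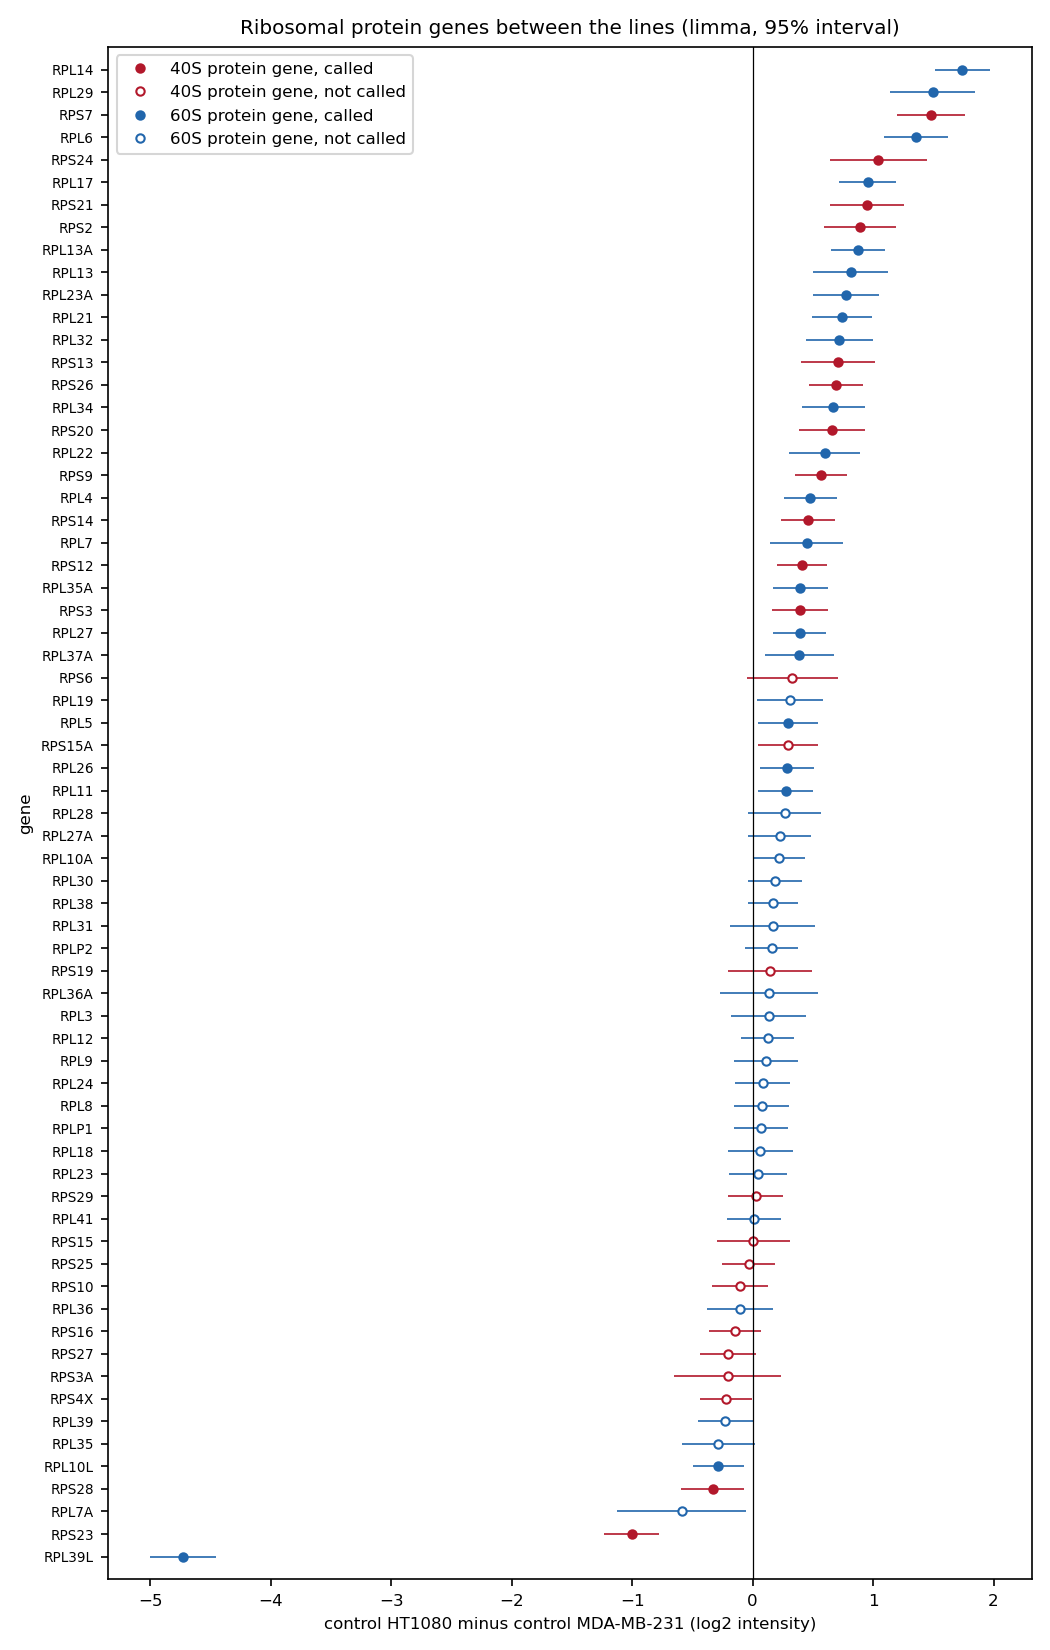
Difference in log2 intensity, control HT1080 minus control MDA-MB-231, for the 67 ribosomal protein genes tested (points, with 95% intervals of the limma fit), 40S genes in red and 60S genes in blue, filled where the adjusted p was under 0.05. RPL39L stands apart at -4.73, 30 called genes lie right of 0, and 4 called genes lie left of it.

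The largest difference among the members belonged to RPL39L, a paralog of RPL39 known from testis. Its probe read 5.98 and 5.95 log2 in HT1080 control, against 10.85 and 10.53 in MDA-MB-231 control. The HT1080 values lie at the array medians, where a probe cannot be told from background, and the MDA-MB-231 values lie far above. The difference was -4.73 (SE 0.12, limma adjusted p = 1.87e-09). If both readings include background, which the sources do not state, the difference in mRNA may be larger. Its size was not measured. RPL39 itself, a protein lining the exit of the peptide tunnel, read 13.51 and 13.41 in HT1080 control and 13.65 and 13.72 in MDA-MB-231 control. That difference of -0.23 (SE 0.10, adjusted p = 0.0936) was not called, although the arrays of the lines did not overlap.

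The other paralogs of the rule gave no such contrast. RPL10L read 5.77 and 5.72 log2 in HT1080 control and 6.04 and 6.02 in MDA-MB-231 control, a called difference of -0.29 (adjusted p = 0.0296) between values at the array medians. Leaving out any control array ended that call, with adjusted p from 0.0708 to 0.118. RPL3L, a striated muscle paralog of RPL3, was below the filter, as was RPL10. A probe below the filter does not show that the mRNA is absent, so RPL10 could not be set beside RPL10L. RPL3 differed by 0.13 and was not called (SE 0.14, adjusted p = 0.458). The other kept probe of RPL3 had 0.67, with an adjusted p of 0.0062 in limma over all kept probes.

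Among 60S genes, RPL14, RPL29 and RPL6 were higher in HT1080 by more than 1 log2. RPL14 read 10.22 and 10.16 log2 in HT1080 control, against 8.53 and 8.37 in MDA-MB-231 control, a difference of 1.74 (SE 0.10, adjusted p = 6.14e-07). That difference depends on the probe, and was 0.09 on the other kept probe of RPL14, as given below. RPL29, also known as a heparin-binding protein, read 10.33 and 10.61 in HT1080 control, against 9.17 and 8.79 in MDA-MB-231 control (1.49, SE 0.16, adjusted p = 3.87e-05). RPL6 read 11.17 and 11.17 in HT1080 control, against 9.96 and 9.67 in MDA-MB-231 control (1.35, SE 0.12, adjusted p = 1.09e-05). In each of the 3 genes both HT1080 arrays lay above both MDA-MB-231 arrays, and the siVRK1 arrays of each line lay near their own controls, as the plot of 10 members shows array by array.

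Among 40S genes, RPS7 and RPS24 were the counterparts. RPS7, which can bind MDM2 when ribosome assembly is disturbed, read 10.47 and 10.47 log2 in HT1080 control, against 9.12 and 8.85 in MDA-MB-231 control (1.48, SE 0.13, adjusted p = 8.52e-06). RPS24, mutated in some families with Diamond-Blackfan anaemia, read 12.03 and 12.01 in HT1080 control, against 11.22 and 10.74 in MDA-MB-231 control (1.04, SE 0.18, adjusted p = 0.00097). The difference of RPS24 depends on the probe, as given below.

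RPS23 ran the other way. It encodes a 40S protein at the decoding centre and read 8.97 and 8.93 log2 in HT1080 control, against 9.86 and 10.04 in MDA-MB-231 control. The difference had an interval from -1.23 to -0.77 (SE 0.10, adjusted p = 3.04e-05). RPS28, a 40S protein near the mRNA exit, read 11.09 and 10.95 in HT1080 control and 11.46 and 11.24 in MDA-MB-231 control, a difference of -0.33 whose adjusted p was 0.038. Leaving out any HT1080 array or the first MDA-MB-231 control array ended the call of RPS28, with adjusted p from 0.0557 to 0.202.

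Smaller higher values in HT1080 ran through both subunits. RPL17 differed by 0.95 (SE 0.11), RPS21 by 0.95 (SE 0.14), RPS2 by 0.89 (SE 0.13), RPL13A by 0.88 (SE 0.10), RPL13 by 0.81 (SE 0.14), RPL23A by 0.77 (SE 0.12) and RPL21 by 0.74 (SE 0.11), with adjusted p from 5.86e-05 to 0.00088. RPL17 and RPL23A sit around the exit of the peptide tunnel, RPS2 lies at the mRNA entry, and RPL13A is also known for leaving the ribosome to silence mRNAs after interferon. The remaining 18 called genes had differences between 0.27 and 0.72. They included RPL5 (0.29, adjusted p = 0.0497) and RPL11 (0.27, adjusted p = 0.0452), which join 5S rRNA in the particle that can hold MDM2, and RPS14 (0.46, adjusted p = 0.0036), lost in the 5q- syndrome.

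Of the 33 members not called, 23 had positive and 10 negative values. The P-stalk genes RPLP1 (0.07) and RPLP2 (0.16) were among them, as was RPS6 (0.33, SE 0.17, adjusted p = 0.135), the substrate of the S6 kinases. The other kept probe of RPLP1 had 0.52, with an adjusted p of 0.0043 in limma over all kept probes. RPS19, the gene most often mutated in Diamond-Blackfan anaemia, differed by 0.14 (adjusted p = 0.475). RPL7A had the lowest uncalled value, -0.59, with an interval from -1.13 to -0.05 and an adjusted p of 0.0664.

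**Figure D2:**
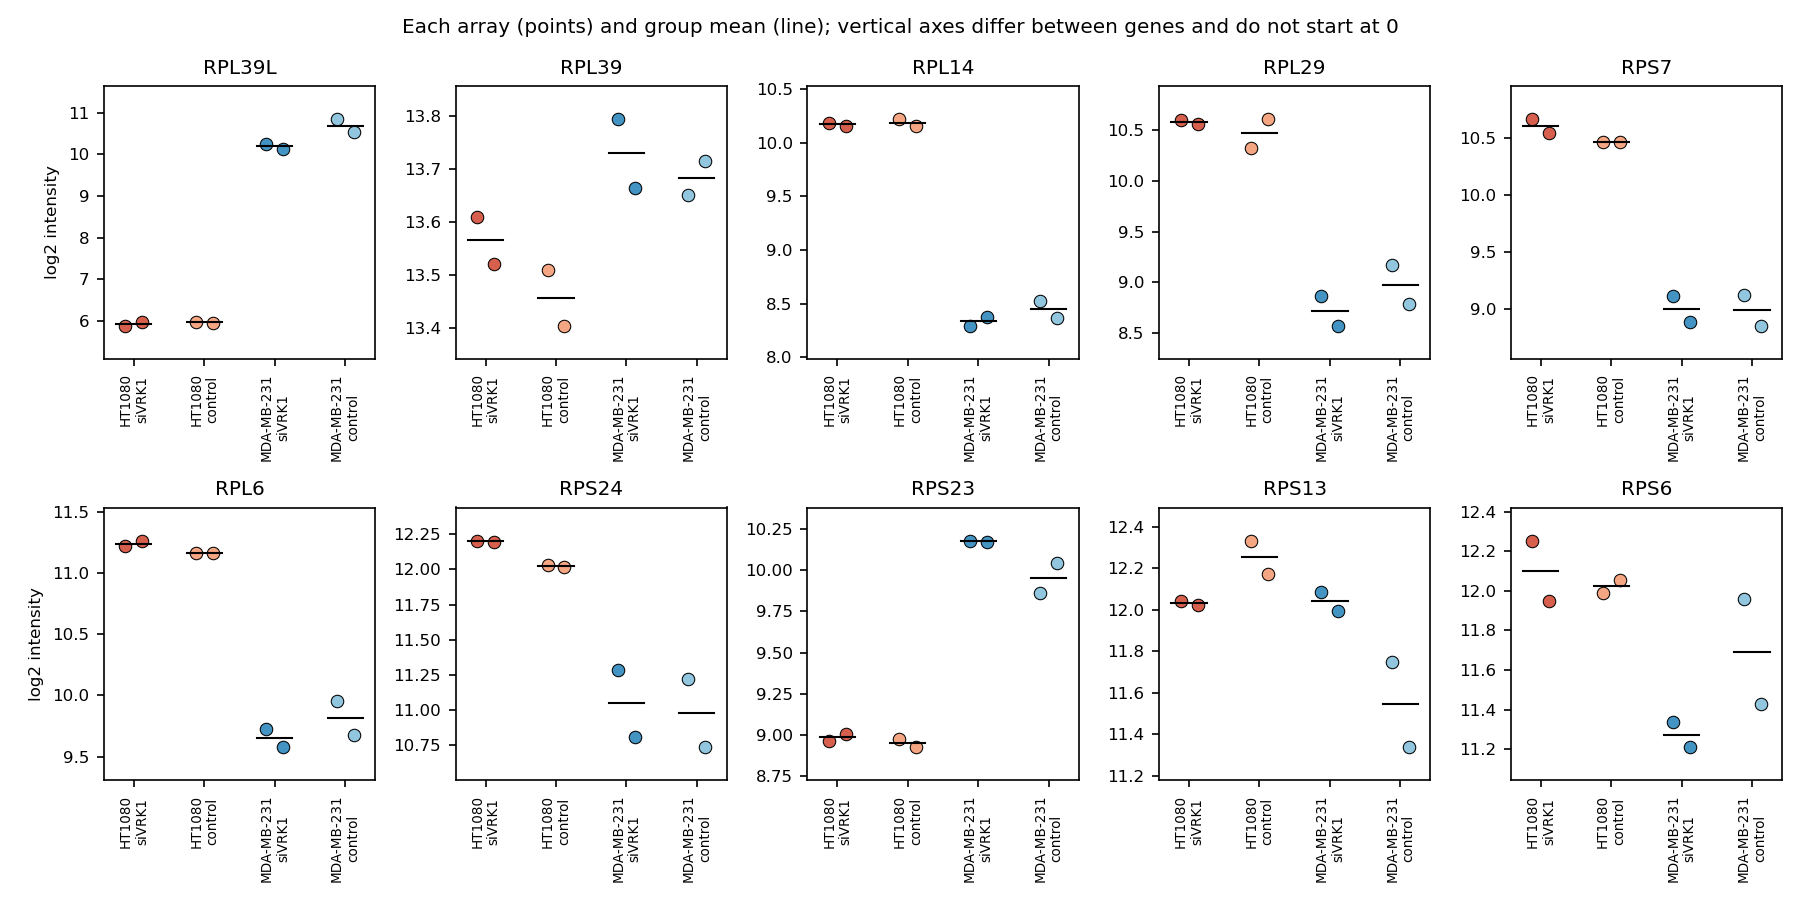
Log2 intensity on each of the 8 arrays (points) with the group mean (line) for 10 ribosomal protein genes, siVRK1 left of control within each line. RPL39L lies near 6 on all 4 HT1080 arrays and above 10 on all 4 MDA-MB-231 arrays, whereas RPL14, RPL29, RPS7 and RPL6 lie higher on all HT1080 arrays than on any MDA-MB-231 array.

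For some genes the difference between the lines belonged to 1 probe and not to another. Of the members, 16 had more than 1 kept probe, giving 19 pairs of a gene's brightest probe with another. RPL39L, RPL29 and RPL6 had 1 probe each on the array, so no other probe stands beside their differences. A limma test of the difference between the probes of a pair, added after the data were seen, called 9 of 19 pairs (47.4%), against 30.7% of the 2037 such pairs of all genes. Leaving out any 1 of the 4 control arrays lowered the count to 6. The platform names separate transcripts for some of these probes, and ribosomal protein genes have many processed pseudogenes whose transcripts a probe may also bind, which was not tested since probe sequences were not used here.

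RPL14 and RPS24 showed the difference in their brightest probe alone. The platform assigns the other RPL14 probe to another transcript variant. It read 7.33 and 7.99 log2 in HT1080 control and 7.68 and 7.46 in MDA-MB-231 control, a difference of 0.09. The RPL14 probes thus differed by 1.65 (SE 0.22, adjusted p = 2.58e-05). The other RPS24 probe, also assigned to another transcript variant, read 11.10 and 10.89 in HT1080 control and 11.21 and 11.25 in MDA-MB-231 control. Its difference was -0.24 against 1.04 for the brightest probe, and the probes differed by 1.28 (SE 0.18, adjusted p = 2.89e-05). With a gene's probes averaged, RPS24 was no longer called (0.40, adjusted p = 0.0837).

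In other genes it was the dimmer probe that moved more. RPL34 had 0.67 on its brightest probe and 1.98 on the other (brightest minus other -1.31, SE 0.15, adjusted p = 4.49e-06), which read 10.37 and 10.37 log2 in HT1080 control and 8.43 and 8.36 in MDA-MB-231 control. RPL8, a protein close to the peptidyl transferase centre, had 0.07 on its brightest probe and 1.19 on the other (brightest minus other -1.11, SE 0.15, adjusted p = 1.75e-05), which read 9.14 and 9.22 in HT1080 control and 7.95 and 8.04 in MDA-MB-231 control. RPL17, RPL36, RPL3, RPLP1 and 1 pair of RPS29 were the remaining called pairs, with the dimmer probe further up in HT1080 by 0.45 to 0.69. Members whose probes had opposite signs without a called pair were RPL38, RPL41, RPS15 and another RPS29 probe, with differences between -0.27 and 0.17. After siVRK1 no pair of a member gene was called in either line, nor was any of the 2037 pairs (0%), and 1 of the 19 had an unadjusted p under 0.05 in each line. The plot of probes of the same gene gives all 19 pairs.

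**Figure D3:**
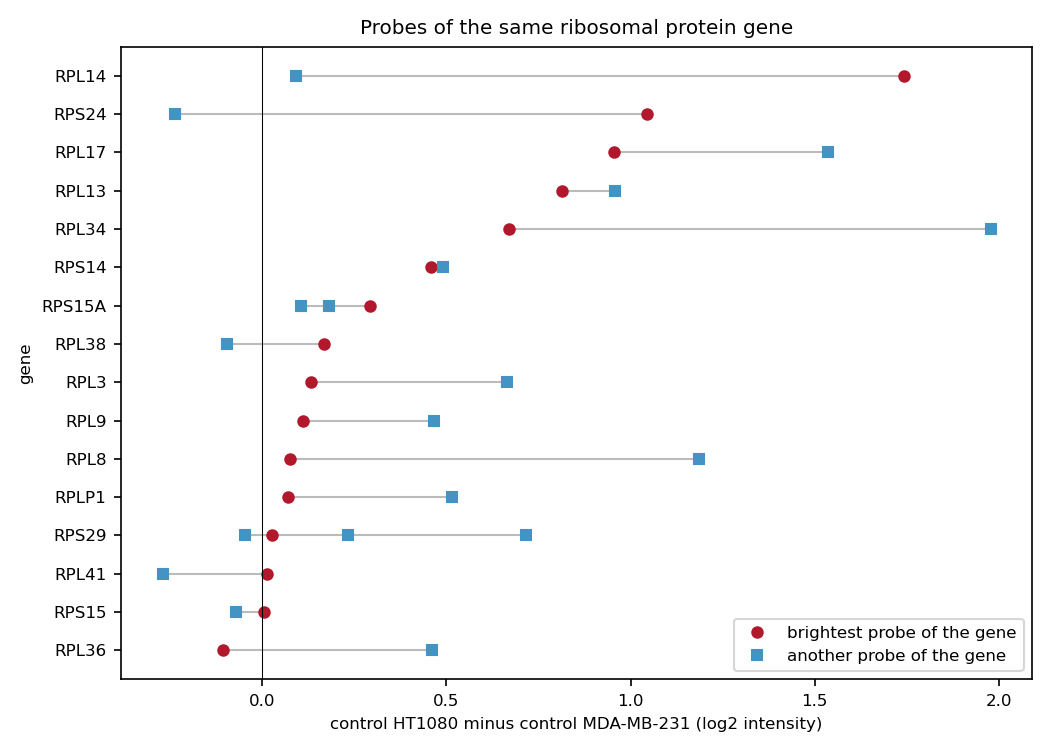
Difference in log2 intensity, control HT1080 minus control MDA-MB-231, for every kept probe of the 16 ribosomal protein genes with more than 1 kept probe (circle, the brightest probe, squares, other probes). The probes of RPL14 stand at 1.74 and 0.09, those of RPS24 at 1.04 and -0.24, and those of RPL34 at 0.67 and 1.98.

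After siVRK1 no ribosomal protein gene was called in either line. In HT1080, limma called 0 of 67 members, where 0.291% of all genes tested were called, and 3 members had an unadjusted p under 0.05 (4.48%, against 10.2% of all genes tested). In MDA-MB-231, limma called 0 of 67 members, where 0.931% of all were called, and 5 members had an unadjusted p under 0.05 (7.46%, against 12.7%). The average of both lines' changes gave 0 calls of 67 (2.44% of all), with 5 members at an unadjusted p under 0.05 (15.0% of all). With background shares this low, a count of 0 among 67 genes does not set the members apart.

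The interval of each gene gives a range for the size of its change in probe intensity. The median change was 0.03 log2 in HT1080 and -0.01 in MDA-MB-231, and 0.00 in both lines for all genes tested. Members ranged from -0.25 to 0.31 in HT1080 and from -0.50 to 0.50 in MDA-MB-231. The 95% interval of a member reached 0.25 log2 to either side in the median. No member's interval went beyond 0.85 in HT1080 or 0.89 in MDA-MB-231. These intervals hold for single genes and not for all members at once. They do not bound the mRNA change for probes at the array medians, such as RPL39L in HT1080. Nor do they for the brightest probes, where the shared distribution would hold down a common shift. With this number of arrays, an estimated change within about 0.25 log2 could not be told from no change for most members, even before adjustment. An adjusted call needed more. In MDA-MB-231, RPL39L at -0.50 and RPS13 at 0.50 were not called (limma adjusted p = 0.101 and 0.14).

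The median over members was 12.04 and 12.01 log2 on the HT1080 siVRK1 arrays, against 12.09 and 12.01 on the HT1080 control arrays. It was 11.68 and 11.62 on the MDA-MB-231 siVRK1 arrays, against 11.75 and 11.65 on the MDA-MB-231 control arrays. The values of siVRK1 and control overlapped in both lines, while those of the lines stood apart. In HT1080, 45 of 67 changes were positive (67.2%, against 50.7% of all genes tested), and in MDA-MB-231 31 were (46.3%, against 50.8%). By subunit, 17 of the 24 40S genes and 28 of the 43 60S genes were positive in HT1080, with medians of 0.04 and 0.01. In MDA-MB-231, 17 of the 24 40S genes and 14 of the 43 60S genes were positive, with medians of 0.03 and -0.02. The arrays of siVRK1 and control did not overlap for 29 members in HT1080 (44.0% of all genes tested), 22 of them higher (22.5% of all) and 7 lower (21.4% of all). They did not overlap for 20 members in MDA-MB-231 (38.8% of all), 10 higher (20.1% of all) and 10 lower (18.7% of all).

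**Figure D4:**
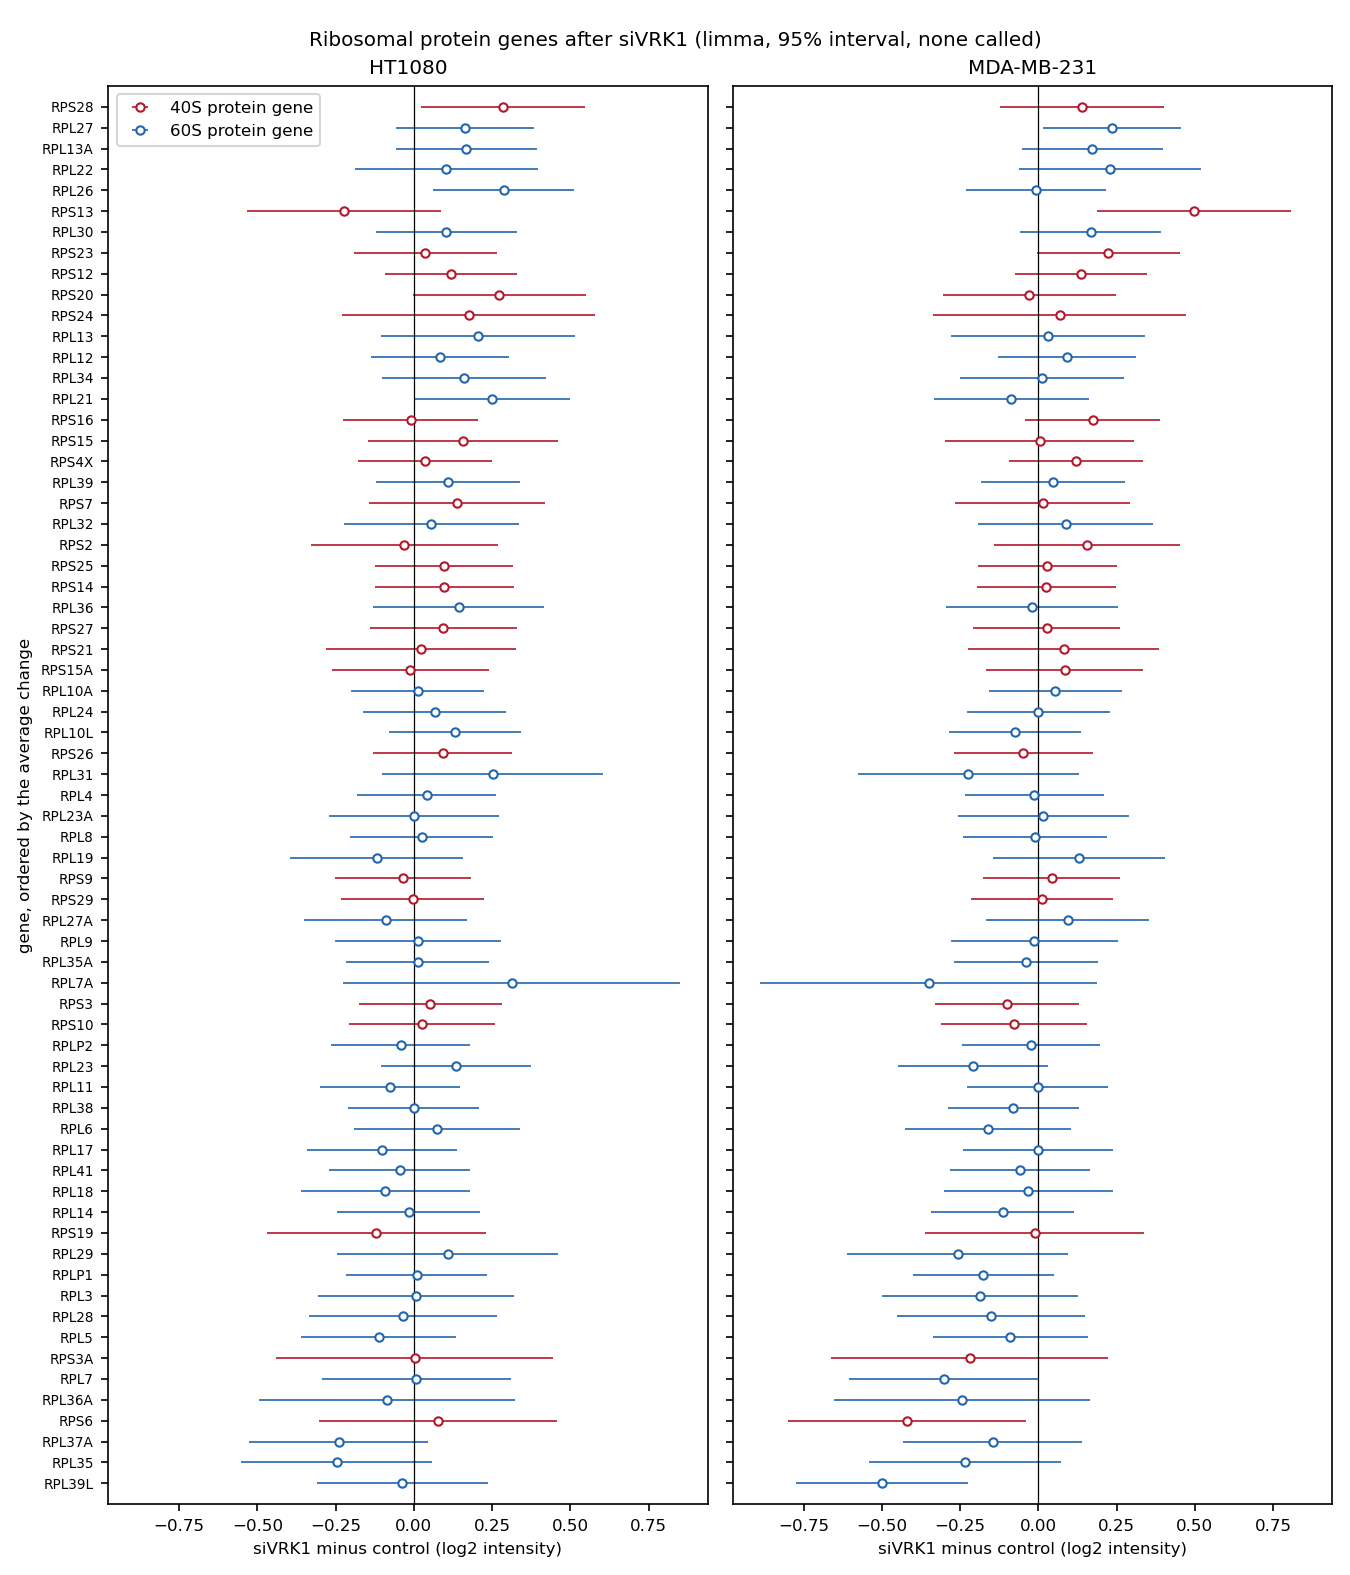
Change in log2 intensity, siVRK1 minus control, for the 67 ribosomal protein genes tested in HT1080 (left) and MDA-MB-231 (right), with 95% intervals of the limma fit, ordered by the average change (40S genes red, 60S genes blue). Points lie between -0.25 and 0.31 in HT1080 and between -0.50 and 0.50 in MDA-MB-231, and none was called.

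RPL39L had the smallest p in MDA-MB-231. It read 10.25 and 10.13 log2 in MDA-MB-231 siVRK1, against 10.85 and 10.53 in MDA-MB-231 control, so both siVRK1 arrays lay below both controls. The change was -0.50 (SE 0.12, adjusted p = 0.101), not called. Without the second MDA-MB-231 control array it was -0.66 with an adjusted p of 0.0482, and with the replicate number as a block it had an adjusted p of 0.0385. In HT1080 the probe stayed at the array medians, at 5.88 and 5.97 in HT1080 siVRK1 and 5.98 and 5.95 in HT1080 control, where a change of mRNA could not be read.

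RPS13, a 40S protein at the bridge to the large subunit, had the widest gap between the lines. It read 12.04 and 12.02 log2 in HT1080 siVRK1, against 12.33 and 12.17 in HT1080 control, a change of -0.22 (SE 0.14, adjusted p = 0.666). It read 12.084 and 11.995 in MDA-MB-231 siVRK1, against 11.75 and 11.34 in MDA-MB-231 control, a change of 0.50 (SE 0.14, adjusted p = 0.14). The siVRK1 arrays thus lay below the controls in HT1080 and above them in MDA-MB-231. The difference of the changes, HT1080 minus MDA-MB-231, was -0.72 (SE 0.20, unadjusted p = 0.00458 in limma) and had an adjusted p of 0.561. No member was called for this difference, as no gene was among the 10309 tested (0% called), and 3 members had an unadjusted p under 0.05 (6.14% of all genes tested).

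RPS6, which S6 kinases phosphorylate, read 11.34 and 11.21 log2 in MDA-MB-231 siVRK1 and 11.96 and 11.43 in MDA-MB-231 control, a change of -0.42 (SE 0.17, adjusted p = 0.337). The control arrays lie further apart than the siVRK1 arrays lie from the nearer control. RPL7 had -0.30 (adjusted p = 0.392), RPL23 -0.21 (adjusted p = 0.472) and RPL27 0.23 (adjusted p = 0.36) in MDA-MB-231. In RPS23, RPS16 and RPL22 the changes were 0.22, 0.17 and 0.23, with adjusted p of 0.407 or more.

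In HT1080 the smallest p belonged to RPL26, a protein near the tunnel exit also known to bind p53 mRNA. It read 11.83 and 11.93 log2 in HT1080 siVRK1, against 11.62 and 11.58 in HT1080 control, a change of 0.29 (SE 0.10, adjusted p = 0.363). RPS28 had 0.29 (adjusted p = 0.435), RPL21 0.25 (adjusted p = 0.488) and RPS20 0.27 (adjusted p = 0.502). On the lower side stood RPL35 at -0.25 (adjusted p = 0.615) and RPL37A at -0.24 (adjusted p = 0.595). RPL35 was also low in MDA-MB-231, at -0.23, and the average of its changes was -0.24 (SE 0.10, adjusted p = 0.275). The 2 lines share no arrays, so for these genes the changes in each are separate readings, none of them called.

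**Figure D5:**
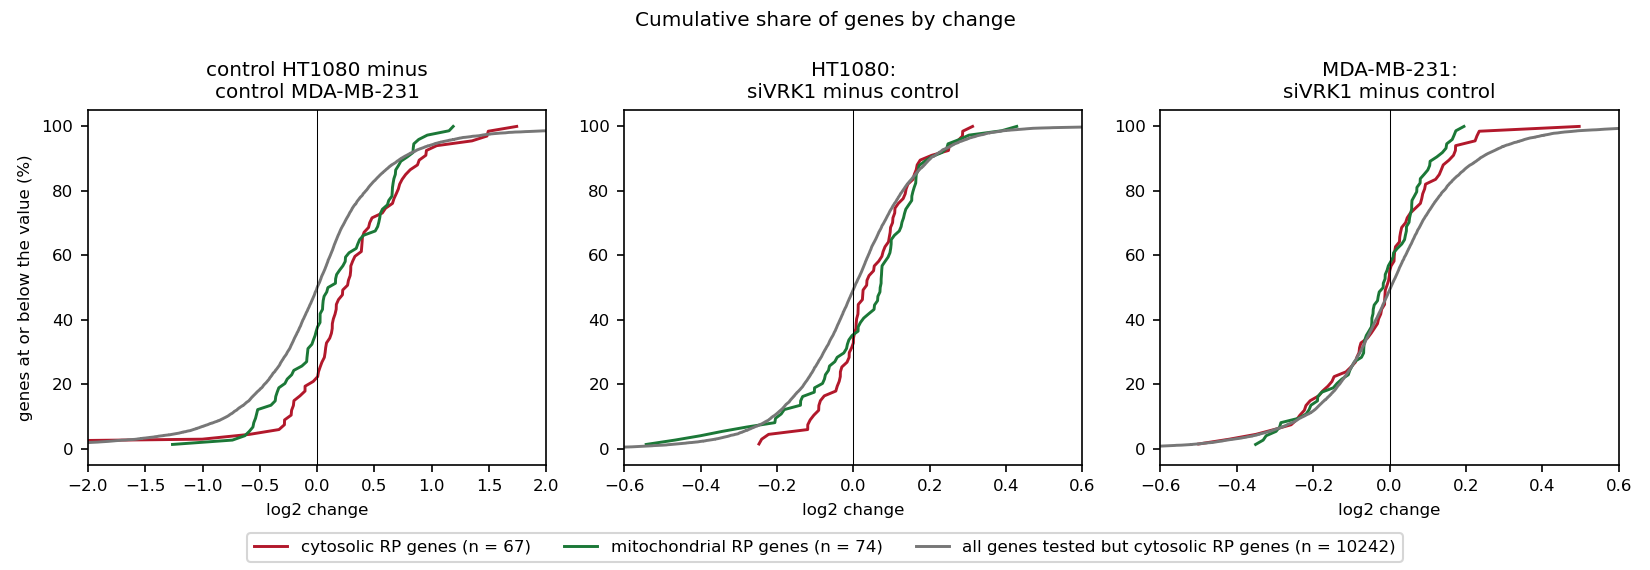
Cumulative share of genes (%) by log2 change for control HT1080 minus control MDA-MB-231 (left), siVRK1 minus control in HT1080 (middle) and siVRK1 minus control in MDA-MB-231 (right), for the 67 cytosolic and 74 mitochondrial ribosomal protein genes and for all genes tested but the cytosolic ones. In the left panel, cut at 2 log2 to either side, the cytosolic genes run mostly right of the others, with a median of 0.27 against 0.00.

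Genes that make, feed and steer ribosomes were set beside the members between the control lines, read against 24.3% higher and 25.5% lower among all genes tested. Of 80 ribosome biogenesis factors 43 were higher in HT1080 control and 8 lower, with a median difference of 0.35. Of the subunits and factors of RNA polymerase I, which makes rRNA, 6 of 14 were higher and 0 lower (median 0.34), and of those of RNA polymerase III, which makes 5S rRNA and tRNAs, 6 of 12 were higher and 1 lower (median 0.35). HEATR1, needed for rRNA transcription and processing, was higher by 1.83 (SE 0.12), RCL1 by 1.499 (SE 0.10) and POLR1D, a subunit shared by both polymerases, by 1.32 (SE 0.10). On the lower side stood DDX10, an RNA helicase, at -1.44 (SE 0.29), SDAD1 at -0.61 (SE 0.11) and MAF1, the repressor of RNA polymerase III, at -0.55 (SE 0.16). All of these were called.

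Translation factors were also more often higher than lower in HT1080 control. Of 31 initiation factors 15 were higher in HT1080 control and 2 lower (median 0.34), with EIF2A at 1.39 (SE 0.14) and EIF4E2 at 0.92 (SE 0.12), against EIF6, which keeps the subunits apart, at -0.69 (SE 0.10) and EIF4H at -0.54 (SE 0.11). Of 19 elongation factors and other TOP mRNAs, a list that also holds VIM, 7 were higher and 1 lower (median 0.27). EEF1A2, the elongation factor form of muscle and nerve, was higher by 1.55 (SE 0.14) and HNRNPA1 by 0.69 (SE 0.15), and NAP1L1 was lower at -0.51 (SE 0.17). Of 12 chaperones and importers of ribosomal proteins and nascent chains 7 were higher and 0 lower (median 0.36), among them HEATR3 at 0.58 (SE 0.12) and DNAJC2 at 0.50 (SE 0.13).

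The mTORC1 and S6 kinase list ran the other way: of 17 genes 0 were higher in HT1080 control and 6 lower, with a median of -0.15. RHEB, the GTPase that switches mTORC1 on, had -1.06 (SE 0.12) and TSC1, part of the complex that switches RHEB off, -0.85 (SE 0.15). MTOR itself, at 0.23 (adjusted p = 0.131), and AKT1S1, at 0.31 (adjusted p = 0.063), had the highest values and were not called. Ribosomal protein genes outside the symbol rule were mixed: RPL26L1 differed by 0.79 and RPL7L1 by 0.36, both called, RPL36AL by -0.80, called, and FAU by -0.21 (adjusted p = 0.11).

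After siVRK1 these lists held a single call within a line, where 0.291% of all genes tested were called in HT1080 and 0.931% in MDA-MB-231. RRP15, which helps process pre-rRNA of the large subunit, read 9.44 and 9.39 log2 in HT1080 siVRK1, against 8.78 and 8.86 in HT1080 control, a rise of 0.60 (SE 0.09, adjusted p = 0.0433). Leaving out any HT1080 array ended this call, with adjusted p from 0.343 to 0.449 and 0 or 1 of all genes called, as did leaving out either MDA-MB-231 siVRK1 array or an intensity trend in the variance (adjusted p = 0.0582 each). In MDA-MB-231 it read 9.24 and 9.23 in siVRK1 and 9.04 and 9.04 in control, a change of 0.19 (adjusted p = 0.457), and the difference of the changes, HT1080 minus MDA-MB-231, was 0.41 (adjusted p = 0.717), not called. In the average over both lines RRP15 (0.39, adjusted p = 0.0208), EIF3A (0.51, adjusted p = 0.0289) and EEF2K, the kinase that slows elongation (0.36, adjusted p = 0.0392), were called, all higher after siVRK1, where 2.44% of all genes tested were called. Leaving out any HT1080 array ended all 3 calls, with adjusted p from 0.0591 to 0.168, and the genes called among all tested then numbered 20 to 46, against 252 with all 8 arrays. Those of RRP15 and EEF2K were also lost without the first MDA-MB-231 siVRK1 array (adjusted p = 0.0583 and 0.106) and that of EIF3A without the second (adjusted p = 0.0649). That of EEF2K was lost as well without either MDA-MB-231 control array (adjusted p = 0.0731 and 0.0518) and with the intensity trend (adjusted p = 0.0605). List medians lay between -0.12, for elongation factors and TOP mRNAs in MDA-MB-231, and 0.12, for RNA polymerase III in HT1080.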

How the data were processed

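The authors deposited 1 table of log2 intensities per probe and array. The submitters' processing notes name GenomeStudio. Its version, the normalization and any background correction are not given in the sources used here. The deposited columns had the same distribution when received and were not normalized again. Gene names came from the platform annotation: 21834 probes had 1 symbol, 0 several and 2692 none, and 21813 symbols were found in a RefSeq gene table of GRCh38.p14, used for names and gene order.

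Probes whose highest group mean reached the median of all probe means, 5.95 log2, were kept (13599, of which 1253 had no name), and the brightest kept probe stood for each gene. Group means were fitted over all 8 arrays with limma 3.58.1 (lmFit, eBayes) in R 4.3.3, with 4 residual and 5.63 prior degrees of freedom. Tests were two-sided, with Benjamini-Hochberg adjustment over all 10309 genes and calls at an adjusted p under 0.05. The comparisons were siVRK1 against control in each line, their average and difference, and control HT1080 against control MDA-MB-231. SE is that of the fit. The procedure was tested on simulated data.

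The members, lists, tests and alternatives were chosen with earlier results of these data known. Named were up to 12 called members in each direction, or the 5 with the smallest p where fewer than 3 were called, the brightest and dimmest 3, the paralogs with their partners, members whose probes had opposite signs, and the 2 highest and lowest of each list. Others named as examples of a role were chosen after their values were seen. Alternatives were other filters, probe averages, normalizations and variance models, a replicate block, and leaving out each array. The number of arrays limits the precision.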

Additional observations from a re-analysis of the deposited data

How the results depend on the processing

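The count of 34 members called between the control lines lay between 26 and 33 when each array was left out in turn, and between 30 and 44 under the other filters, probe rules, normalizations and variance models, where 44 counts probes in place of genes. Requiring at least 1 log2 beside the adjusted p left 7, of which 5 were higher and 2 lower in HT1080. The median of 0.27 lay between 0.22 and 0.29 throughout. For siVRK1 in MDA-MB-231 the count of 0 lay between 0 and 1 with arrays left out, and with the replicate block it was 1, both times RPL39L, lower. In that block fit 2.88% of all genes were called, against 0.931% without it. Same-numbered arrays share only a number: their deviations from the group means correlated at -0.05 in HT1080 and 0.48 in MDA-MB-231. The counts in HT1080, for the average and for the difference were 0 in every setting run, which says nothing about stability: with any 1 HT1080 array left out 0 or 1 of all genes were called in HT1080 and 20 to 46 for the average, and the difference had 0 to 3 calls among all genes in any setting. The calls of RPS28 and RPL10L were lost in 6 and 5 settings, with adjusted p up to 0.202 and 0.118. No named value changed sign while called. With HT1080 fitted alone 97 of all genes (0.941%) were called in that line, and with the replicate block 65 (0.631%). The joint fit of all 4 groups without a block called 30 (0.291%). That joint fit gives a gene the same SE in both lines. Over all genes tested, the SD of the difference between replicates was 0.23 and 0.26 in MDA-MB-231 siVRK1 and control. It was 0.18 and 0.17 in HT1080 siVRK1 and control. The shared distribution of the deposited columns limits any reading of a change common to the brightest genes, and background, which was not given, limits values near 6 log2.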

Other observations

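The mitochondrial ribosomal protein genes, whose products serve the separate ribosome of the mitochondrion, had a smaller median difference between the lines than the cytosolic ones, and the gap was not tested. Of 74 tested, 28 were higher in HT1080 control than in MDA-MB-231 control and 13 lower (limma, adjusted p under 0.05), where 24.3% of all genes tested were higher and 25.5% lower, with a median difference of 0.13 log2. MRPS31 was higher by 1.19 (SE 0.10) and MRPS22 by 1.15 (SE 0.14), while MRPS10 was lower at -1.26 (SE 0.12) and MRPS6 at -0.74 (SE 0.16). After siVRK1 no member of this list was called in either line, and the medians were 0.07 in HT1080 and -0.02 in MDA-MB-231.

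The genes next to RPL39L on chromosome 3 had differences in both directions. Over the 5 tested genes to each side in RefSeq order the median difference, control HT1080 minus control MDA-MB-231, was -0.06, with 2 called higher and 3 lower. The 3 called lower all lay on the same side of RPL39L. They were BCL6 at -0.47, P3H2, a collagen prolyl hydroxylase 4 tested genes away, at -3.85, and CLDN1, a tight junction protein beside P3H2, at -1.20. The 2 called higher lay on the other side, RFC4 at 0.39 and EIF4A2, an RNA helicase of translation initiation, at 0.64. Whether the region shares a cause was not tested. The median over all 583 genes tested on chromosome 3 was 0.16. Around RPL14, on the same chromosome, the 10 neighbours had a median of -0.08, with 0 called higher and 3 lower.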
